A study of Mus musculus with 12 samples.

Results

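The 41 genes described here encode the folding, entry and disposal machinery of the endoplasmic reticulum (ER): the ER stress sensors Ern1 and Atf6 with the transcription factor Xbp1, the ER chaperones and their helpers, the disulfide isomerases, the ER-associated degradation factors, the translocation channel and the signal peptidase. They were listed by name, with no measured value as a criterion, but by a choice made with earlier results of these data known. All 41 were found, each under 1 identifier, among the 34866 genes of the deposited table. TPM is a transcript level per length, scaled to each library's total. All 41 averaged 1 TPM or more across the 12 libraries, as did 12504 genes in all.

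Polyadenylated RNA was sequenced from 12 cultures of mouse embryonic fibroblasts (MEFs), with 3 libraries in each of 4 groups, which were WT and KO cells of either sex. WT cells came from 129S1/SvImJ embryos and KO cells from embryos of a Sirt3 knockout stock, taken one embryo at a time on day 13. Sirt3 is a mitochondrial NAD-dependent deacetylase. All 4 groups were immortalized with SV40 T antigen, which inactivates p53 and Rb, received no treatment, and were seeded at passage 6 and lysed 48 h later. The study compared KO with WT cells within each sex. Its methods describe wells seeded in triplicate and give no number of embryos or lines per group. If each group was 1 line, then line cannot be told apart from genotype or from sex, and the p-values below measure only the spread between wells.

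Sirt3 mRNA ran from 6.59 to 9.07 TPM in male WT, from 8.88 to 11.0 in male KO, from 7.40 to 8.69 in female WT and from 7.57 to 9.06 in female KO libraries, so it was not lower in the libraries labelled KO. KO here means a library labelled KO. The summed level of 10 fibroblast markers was 9340.1 to 10463 TPM in male WT, 11594 to 12308 in male KO, 8132 to 8305 in female WT and 9901 to 10244 in female KO libraries. By limma 4 of the 10 were higher and 2 lower in male KO, and 7 higher and 0 lower in female KO. Col1a1 carried most of the sum's rise, from 3184 ± 218 to 4807 ± 217 TPM in male and from 2127 ± 50.1 to 3227 ± 63.3 in female cells (mean ± SD, n = 3). Vim and Fn1 passed in neither sex, and Prrx1 fell in male KO (from 139 ± 2.32 to 92.0 ± 7.89 TPM), as did Twist1 (from 124 ± 6.82 to 94.9 ± 5.43). The part of these markers in the ER results below was not tested. The summed levels of 6 epithelial markers were 9.54 to 10.6 TPM in male WT, 0.603 to 1.12 in male KO, 6.41 to 7.73 in female WT and 1.93 to 2.27 in female KO, carried mainly by Krt18 and Epcam, while Cdh1 and Krt8 stayed under 1 TPM. Of the other lists, each of 5 markers, skeletal muscle reached 7.02 TPM in female WT (Des) and at most 0.712 in the other groups. Endothelium ran from 4.72 to 5.95 TPM in female WT (mainly Kdr) and reached at most 2.25 in the other groups. Blood and macrophage reached 11.4 TPM (mainly Cd68), neural and glial 25.5 (mainly Tubb3), and plasma and gland secretory cells 0.373. Adgre1, Cpa1, Prss1 and Amy2a5 were at 0 in all libraries. Cd68, of the same list as Adgre1, ran from 3.95 to 9.93 TPM. Csf1r, also of that list, ran from 0.165 to 0.286 TPM in male WT and from 1.255 to 1.64 in male KO. In such bulk samples, fewer cells of a type and less RNA per cell cannot be told apart.

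Secretory and membrane proteins enter the ER through the Sec61 channel, where the signal peptidase removes the signal peptide. Inside, the Hsp70 chaperone BiP (Hspa5), the Hsp90 chaperone Grp94 (Hsp90b1), the lectins calreticulin and calnexin and the protein disulfide isomerases fold them, and proteins that do not fold are pulled back to the cytosol and degraded. When unfolded proteins accumulate, the unfolded protein response (UPR) begins: the sensor Ire1 (Ern1) splices Xbp1 mRNA, Atf6 is cut to release a transcription factor, and PERK slows translation. The transcription factors made from Xbp1 and Atf6 bind short promoter sequences, the ER stress response elements (ERSE), and turn on chaperone and degradation genes. Fibroblasts secrete large amounts of collagen, which passes through this machinery.

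These elements are shown first because many members share them. RefSeq promoters of the GRCm38.p6 build, from 250 bases before to 50 bases after the transcription start, were matched by symbol for 31 of the 41 genes (32 promoters). Hspa13, Hyou1, Sec61a1, Erlec1, Spcs3, Manf, Ssr2, Derl1, Atf6 and Sec11c had no match. ERSE was searched on both strands as CCAAT, 9 free bases and CCACG and was found in 9 of the 31 genes, against 37 of the 27025 genes with a promoter in the table (0.137%) and 39 of its 32851 promoters (0.119%). ERSE-II, searched as ATTGG, 1 free base and CCACG, was found in 2 members and in 12 promoters (0.0365%). The UPR element TGACGTGG was found in none of the members and in 222 promoters (0.676%). Of 73 matched genes of the other ER lists described below, 1 held ERSE, 1 ERSE-II and 4 the UPR element. ERSE acts in chaperone genes, as said above, and the members include such genes. These shares are therefore no test of the members. No match of one element overlapped a match of another in the members. A match is a description of these letters and was not tested as a binding site, and a missing match says only that the letters are not in this window.

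The 10 copies of ERSE and 2 of ERSE-II in the members are written below in the direction of the element, with the fixed letters in capitals and the free spacer in lower case. Positions count from the transcription start, with bases before it negative.
Hspa5, -65 to -47: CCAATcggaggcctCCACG
Hsp90b1, -212 to -194: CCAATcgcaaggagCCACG
Hsp90b1, -107 to -89, on the opposite strand: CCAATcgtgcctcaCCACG
Calr, -162 to -144, on the opposite strand: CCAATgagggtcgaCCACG
Canx, -145 to -127: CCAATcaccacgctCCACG
Pdia6, -98 to -80: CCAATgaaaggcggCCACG
Dnajc3, -105 to -87: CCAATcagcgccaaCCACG
Creld2, -126 to -108, on the opposite strand: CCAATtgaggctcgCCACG
Derl3, -156 to -138, on the opposite strand: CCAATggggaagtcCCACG
Syvn1, -44 to -26: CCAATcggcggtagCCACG
Herpud1 (ERSE-II), -52 to -42: ATTGGgCCACG
Dnajb11 (ERSE-II), 8 to 18: ATTGGcCCACG

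For the BiP gene, and for 3 genes whose KO effect differed between the sexes (below), the promoter is printed from 250 bases before to 30 bases after the start, in the direction of transcription, with ERSE or ERSE-II in capitals. Of these, Hsp90b1 and Pdia6 had the larger effect in female cells and Herpud1 the larger effect in male cells.
Hspa5, chr2:34771840-34772119, plus strand: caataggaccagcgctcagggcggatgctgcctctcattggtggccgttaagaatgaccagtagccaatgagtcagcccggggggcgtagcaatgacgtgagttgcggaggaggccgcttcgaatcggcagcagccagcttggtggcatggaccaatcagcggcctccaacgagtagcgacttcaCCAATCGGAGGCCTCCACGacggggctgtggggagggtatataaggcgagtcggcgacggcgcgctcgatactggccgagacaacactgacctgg
Hsp90b1, chr10:86705415-86705694, minus strand: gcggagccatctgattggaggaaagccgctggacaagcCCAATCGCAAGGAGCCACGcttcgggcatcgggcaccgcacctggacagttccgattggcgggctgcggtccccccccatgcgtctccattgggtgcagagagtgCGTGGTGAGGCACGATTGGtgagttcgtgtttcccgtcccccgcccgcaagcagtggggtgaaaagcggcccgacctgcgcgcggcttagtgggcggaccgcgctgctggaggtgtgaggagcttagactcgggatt
Pdia6, chr12:17266339-17266618, plus strand: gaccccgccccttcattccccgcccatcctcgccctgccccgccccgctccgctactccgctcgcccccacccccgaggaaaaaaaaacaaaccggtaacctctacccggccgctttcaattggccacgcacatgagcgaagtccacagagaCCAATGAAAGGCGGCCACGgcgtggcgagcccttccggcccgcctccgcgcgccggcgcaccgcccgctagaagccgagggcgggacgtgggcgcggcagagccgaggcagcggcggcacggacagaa
Herpud1, chr8:94386179-94386458, plus strand: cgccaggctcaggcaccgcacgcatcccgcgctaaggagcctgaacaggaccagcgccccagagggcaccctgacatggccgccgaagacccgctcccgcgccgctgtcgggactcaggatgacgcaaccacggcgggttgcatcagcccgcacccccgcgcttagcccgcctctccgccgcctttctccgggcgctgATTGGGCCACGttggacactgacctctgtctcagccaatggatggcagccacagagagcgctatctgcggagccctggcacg

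Between male KO and male WT MEFs, 16 of the 41 ER genes (39%) were higher in KO and none was lower, by limma on log2(TPM + 1) with Benjamini-Hochberg adjustment over 12504 genes and a threshold of 0.05. Over all genes tested, 10.7% were higher and 10.9% lower. At an unadjusted p under 0.05, 21 members were higher and 2 lower, against 2077 and 2306 of the 12504 genes. The median log2 fold change of the 41 genes was 0.13, against -0.015 for all genes, with 31 positive and 10 negative values. In 21 members every male KO library lay above every male WT library, as it did for 18.8% of all genes.

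In female MEFs, 12 of the 41 genes (29.3%) were higher in KO and none was lower by the same limma test. Over all genes 5.63% were higher and 5.84% lower. Unadjusted p-values under 0.05 gave 21 members higher and 1 lower, against 1520 and 1879 of the 12504 genes. The median of the members was 0.13 on the log2 scale, against -0.023 for all genes, with 34 positive and 7 negative values. Every female KO library lay above every female WT library in 25 members, and in 14.9% of all genes. The summed TPM of the 41 genes ran from 7954 to 7997 in male WT, 8719.6 to 8756 in male KO, 7110.5 to 7191 in female WT and 8032 to 8154 in female KO libraries, so neither pair of groups overlapped.

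The 2 comparisons shared 10 genes that were higher in KO in both sexes: Xbp1, Calr, P4hb, Pdia3, Pdia4, Pdia5, Pdia6, Herpud1, Edem1 and Sec61a1. In male cells alone, 6 more passed (Manf, Derl1, Syvn1, Os9, Ssr1 and Spcs3), and in female cells alone 2 (Hspa5 and Hsp90b1). Passing in one sex only does not show that the sexes differ, so the difference between the 2 KO effects was tested itself, as the sex by genotype interaction over all 12 libraries. It passed for 8 members, against 13% of all genes. The male effect was the larger for P4hb, Herpud1, Derl1 and Spcs3, and the female effect for Hsp90b1, Calr and Pdia6. For Dnajb11 the effect was negative in male and positive in female cells, and neither passed. In GENCODE on GRCm38, the genes lie with Hsp90b1 at chr10:86690209-86705509, Calr at chr8:84841850-84846934, Pdia6 at chr12:17266545-17284770, Dnajb11 at chr16:22857845-22879634, P4hb at chr11:120560298-120573253, Herpud1 at chr8:94386438-94395377, Derl1 at chr15:57869502-57892448 and Spcs3 at chr8:54520433-54529998. Hsp90b1, Calr, Pdia6 and Dnajb11 each held ERSE or ERSE-II, while of the other 4 Herpud1 held ERSE-II, P4hb held none of the elements and Derl1 and Spcs3 had no promoter in the table. Hspa5, Canx, Dnajc3, Creld2, Derl3 and Syvn1 also held ERSE and did not pass the interaction. A link of the elements to the sex difference was not tested. Of the 11 members with an element 4 were higher in male KO and 5 in female KO, and of the 20 matched members without one 8 and 6.

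**Figure D1:**
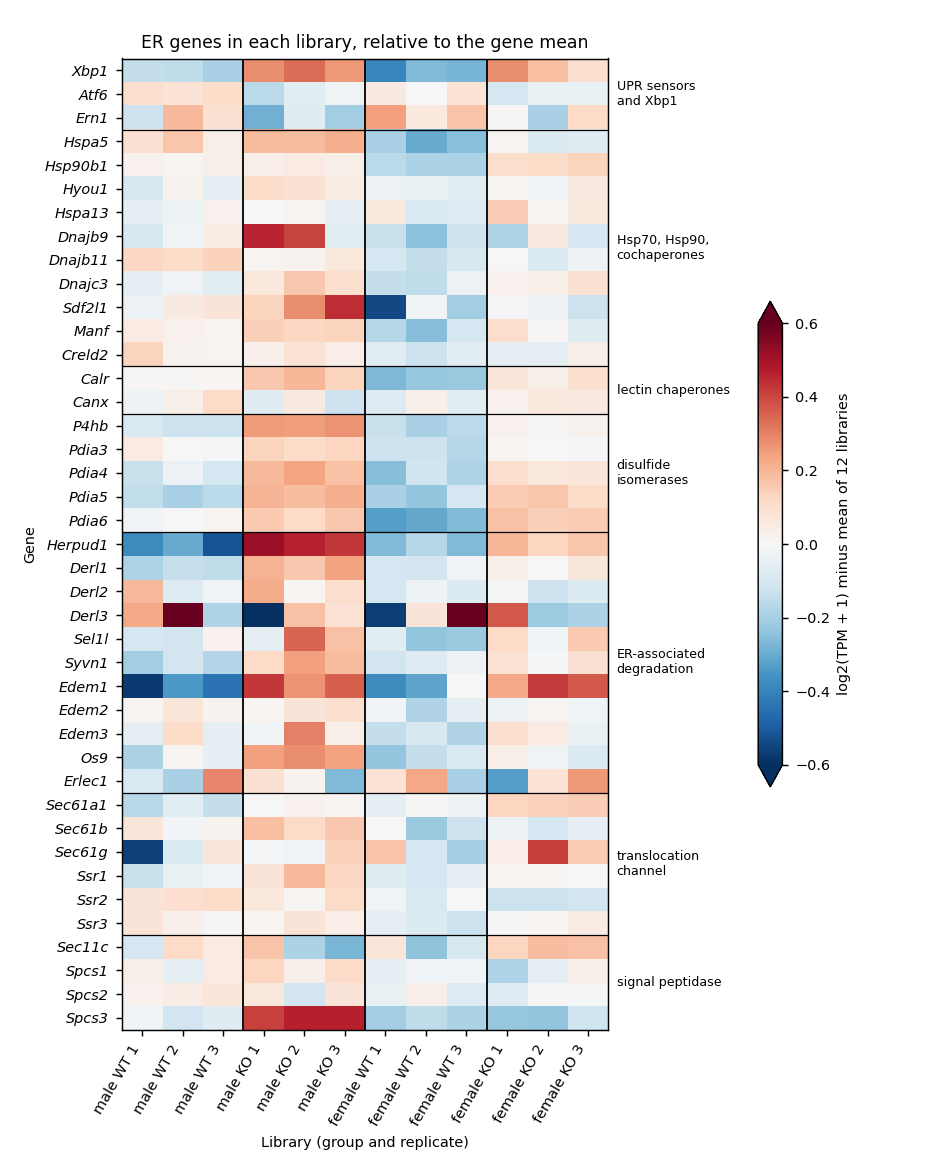
Each row is 1 of the 41 ER genes and each column 1 of the 12 libraries. Colour shows log2(TPM + 1) minus the gene's mean over all libraries, clipped at 0.6 in either direction, with rows grouped by role. Xbp1, Pdia4, Pdia5, Pdia6, Herpud1 and Edem1 are above their mean in the KO columns of both sexes, and Spcs3 in the male KO columns.

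**Figure D2:**
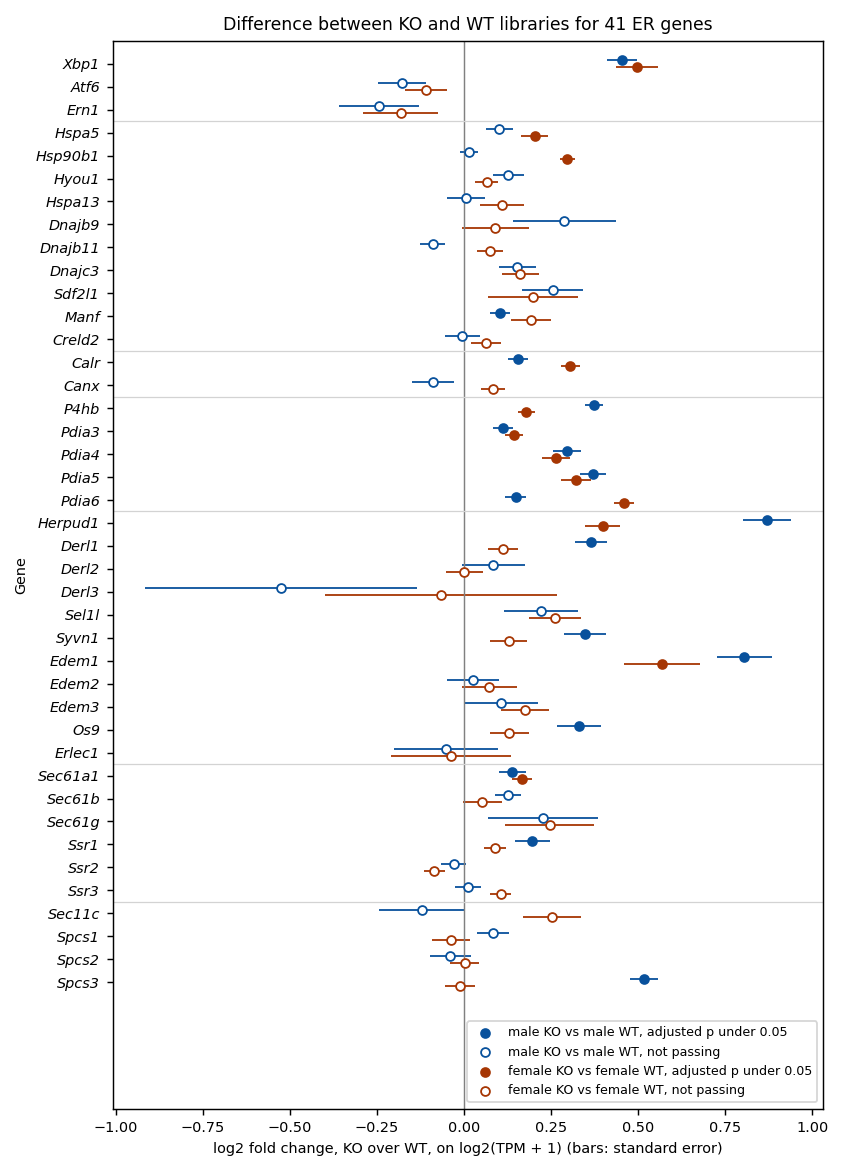
The x axis gives the log2 fold change of KO over WT on log2(TPM + 1) for each of the 41 genes, with bars of 1 standard error, in male (blue) and female (orange-brown) cells with 3 libraries a group. Filled points have an adjusted p under 0.05, which holds for 16 genes in male and 12 in female cells, all to the right of 0.

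Xbp1, the transcription factor whose mRNA Ire1 splices, was the only one of the 3 UPR genes that passed in either sex. Its TPM was 66.9, 66.4 and 64.4 in the 3 male WT libraries and 89.7, 93.4 and 88.5 in male KO. In female cells it was 56.1, 61.4 and 60.6 in WT and 89.7, 83.8 and 79.0 in KO. The KO libraries lay above the WT libraries in each sex, with no overlap. The log2 fold change was 0.45 (SE 0.044, adjusted p = 0.000566) in male and 0.50 (SE 0.061, adjusted p = 0.00417) in female cells, and the difference between the sexes, -0.043 (SE 0.075), did not pass (adjusted p = 0.787). These are gene-level values, so the spliced and unspliced forms of Xbp1 were not measured apart.

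The genes of the 2 sensors had negative fold changes that did not pass. Atf6, the membrane-bound transcription factor, was at 20.8, 20.5 and 20.9 TPM in male WT libraries and 17.2, 18.5 and 19.0 in male KO, and at 20.1, 19.3 and 20.5 in female WT and 17.9, 18.7 and 18.7 in female KO. Every KO library was below every WT library of its sex, yet the log2 fold changes of -0.18 (SE 0.069, adjusted p = 0.116) in male and -0.11 (SE 0.061, adjusted p = 0.304) in female cells did not pass. Ern1, which encodes the Ire1 kinase and RNase, was at 10.5, 13.4 and 12.4 TPM in male WT libraries, 9.27, 10.9 and 9.86 in male KO, 13.9, 12.1 and 13.2 in female WT and 11.6, 9.97 and 12.7 in female KO. Its groups overlapped within each sex, and the fold changes on the log2 scale were -0.24 (SE 0.12, adjusted p = 0.182) in male and -0.18 (SE 0.11, adjusted p = 0.330) in female cells.

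Among the 10 genes of the ER Hsp70 and Hsp90 systems, 1 passed in male cells (Manf) and 2 in female cells (Hspa5 and Hsp90b1). These are 10% and 20% of the list, against 10.7% and 5.63% of all genes higher in KO. The male count is thus near the share of all genes. Hspa5 encodes BiP, the main ER Hsp70, and was among the most abundant members. Its level was 870.4, 918 and 836 TPM in male WT libraries and 930.2, 931 and 950.4 in male KO, and 712, 663 and 685 in female WT and 826, 769 and 776 in female KO. KO and WT did not overlap in either sex, and all female KO libraries were below the lowest male WT library. The difference of KO over WT was, on the log2 scale, 0.10 (SE 0.039, adjusted p = 0.115) in male and 0.20 (SE 0.040, adjusted p = 0.0223) in female cells, and the difference between them did not pass (interaction -0.10, adjusted p = 0.304). The female call was lost without female WT replicate 2 or 3 or female KO replicate 1 or 3 (adjusted p from 0.0564 to 0.0748), and a male call appeared without male WT replicate 2 (adjusted p = 0.0449).

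Hsp90b1 encodes Grp94, the ER Hsp90 that matures integrins and Toll-like receptors. The male libraries held 711, 707 and 718 TPM in WT and 714, 724 and 717 in KO, and these groups overlapped. In the female libraries the levels were 625, 613 and 613 in WT and 753, 755 and 767 in KO, so that female WT was the lowest and female KO the highest of the 4 groups. By limma, the log2 fold change was 0.013 (SE 0.026, adjusted p = 0.773) in male and 0.30 (SE 0.022, adjusted p = 0.000569) in female cells. The 2 effects differed by -0.28 (SE 0.030, adjusted p = 6.67e-05), and the difference passed in all 12 fits that left out 1 library.

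Dnajb11 encodes a J-domain cochaperone of BiP that hands it unfolded chains. Male WT held 129.9, 128 and 131 TPM and male KO 120.4, 121 and 124, while female WT held 110.3, 108 and 111 and female KO 119, 112 and 116. Male KO lay below male WT, and female KO above female WT, with no overlap. Neither log2 fold change passed, at -0.090 (SE 0.036, adjusted p = 0.124) in male and 0.074 (SE 0.037, adjusted p = 0.248) in female cells, while their difference of -0.16 did (SE 0.047, adjusted p = 0.0408). That call held in only 2 of the 12 fits that left out 1 library, those without male KO replicate 3 and without female KO replicate 2. In the other 10 the adjusted p ran from 0.0597 to 0.0979.

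Manf, a small secreted ER protein that binds BiP, was at 437 ± 5.32 TPM in male WT, 469.8 ± 3.49 in male KO, 378 ± 19.7 in female WT and 433 ± 27.5 in female KO (SD, n = 3 for these and the following means). It passed in male cells with a log2 fold change of 0.10 (SE 0.028, adjusted p = 0.0389), but in none of the 6 fits that left out 1 library (adjusted p from 0.0612 to 0.121). The other 6 genes of this group did not pass in either sex. Hyou1, the large Hsp70-like nucleotide exchange factor for BiP, was at 133 ± 5.64 TPM in male WT, 146 ± 3.39 in male KO, 133 ± 1.55 in female WT and 139 ± 3.60 in female KO, with every KO library above every WT library in both sexes. Hspa13, another ER-associated Hsp70 relative, was at 35.6 ± 1.04 TPM in male WT, 35.8 ± 0.994 in male KO, 35.3 ± 2.12 in female WT and 38.1 ± 1.89 in female KO.

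The remaining 4 genes of the group were less abundant than Hyou1. Dnajb9, a J protein that keeps Ire1 bound to BiP, was at 11.1 ± 0.578 TPM in male WT, 13.9 ± 2.79 in male KO, 9.93 ± 0.509 in female WT and 10.6 ± 0.991 in female KO. In male KO it was 15.8, 15.2 and 10.7 TPM, so that replicate 3 stood within the male WT range. Dnajc3, a J protein also known as p58IPK, was at 36.5 ± 0.525 TPM in male WT, 40.7 ± 1.44 in male KO, 34.8 ± 1.61 in female WT and 39.1 ± 1.06 in female KO. Sdf2l1, which works with J proteins to keep BiP clients soluble, was at 34.1 ± 1.44 TPM in male WT, 41.04 ± 4.51 in male KO, 28.1 ± 5.18 in female WT and 32.0 ± 1.44 in female KO. Creld2, an ER stress-inducible protein, was at 84.1 ± 4.07 TPM in male WT, 83.8 ± 1.86 in male KO, 76.0 ± 2.06 in female WT and 79.4 ± 2.98 in female KO. Of these 4 genes, Dnajc3 had every KO library above every WT library in both sexes, Sdf2l1 in male cells and Creld2 in female cells.

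Of calreticulin and calnexin, which hold newly made glycoproteins by their sugars, Calr was higher in KO in both sexes and Canx passed in neither. Calr was the most abundant of the 41 genes by TPM, which is a level per transcript length. The male libraries held 1056, 1054 and 1058 TPM in WT and 1173, 1205 and 1151 in KO, and the female libraries 872, 897 and 901 in WT and 1103, 1075 and 1121 in KO. KO exceeded WT in each sex without overlap, and the female WT group was the lowest of the 4. On the log2 scale KO exceeded WT by 0.15 (SE 0.028, adjusted p = 0.00874) in male and 0.31 (SE 0.026, adjusted p = 0.000963) in female cells. The 2 effects differed by -0.15 (SE 0.036, adjusted p = 0.0172), a call that was lost with quantile normalization (adjusted p = 0.239). Canx, the membrane-bound relative, was at 389 ± 20.5 TPM in male WT, 366 ± 24.01 in male KO, 369 ± 15.1 in female WT and 390.3 ± 4.79 in female KO, and its groups overlapped in both sexes.

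All 5 protein disulfide isomerases, which make and rearrange disulfide bonds in the ER, were higher in KO in both sexes. Of all genes, 10.7% were higher in male and 5.63% in female KO. P4hb, the classical disulfide isomerase and also the beta subunit of prolyl 4-hydroxylase, which modifies collagen, held 593, 580.5 and 579.6 TPM in male WT libraries and 755, 752 and 764 in male KO. Female WT held 577, 553 and 568 and female KO 644, 637 and 641. The male KO libraries stood above the other 9. Its log2 fold change was 0.37 (SE 0.027, adjusted p = 0.000146) in male and 0.18 (SE 0.025, adjusted p = 0.00718) in female cells, and the male effect was larger by 0.19 (SE 0.033, adjusted p = 0.00234).

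Pdia6, which also acts on Ire1, showed the reverse order. Male WT was at 279.9, 283 and 287 TPM and male KO at 316, 309 and 318, and female WT at 225, 229 and 236 and female KO at 321, 314 and 316. The KO groups of the sexes overlapped, and female WT lay below every other library. The log2 fold change was 0.15 (SE 0.031, adjusted p = 0.0152) in male and 0.46 (SE 0.029, adjusted p = 0.000294) in female cells, with a difference of -0.31 (SE 0.039, adjusted p = 0.000266). The male call was lost without male KO replicate 3 (adjusted p = 0.0592).

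Pdia4 and Pdia5 had close values in the 2 sexes, though a difference that does not pass does not show equal effects. Pdia4, an isomerase with additional thioredoxin-like domains, was at 181, 194 and 185 TPM in male WT libraries, 228, 235 and 225 in male KO, 167, 183 and 175 in female WT and 214, 208 and 209 in female KO. Its log2 fold change was 0.29 (SE 0.040, adjusted p = 0.00257) in male and 0.26 (SE 0.040, adjusted p = 0.00981) in female cells, with an interaction of 0.031 (SE 0.056, adjusted p = 0.803). Pdia5 was at 94.2, 91.1 and 93.3 TPM in male WT libraries, 120.4, 119 and 122 in male KO, 91.1, 89.0 and 97.0 in female WT and 116, 118 and 113 in female KO. Its log2 fold change was 0.37 (SE 0.037, adjusted p = 0.000691) in male and 0.32 (SE 0.043, adjusted p = 0.00610) in female cells, with an interaction of 0.049 (SE 0.054, adjusted p = 0.643). For both genes KO and WT did not overlap in either sex.

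Pdia3, the isomerase that works on glycoproteins held by calreticulin and calnexin, moved least of the 5. Its TPM was 554, 536 and 531 in male WT and 587, 578 and 587 in male KO, and 492, 492 and 475 in female WT and 543, 537 and 531 in female KO. The groups did not overlap within either sex. KO differed from WT on the log2 scale by 0.11 (SE 0.030, adjusted p = 0.0374) in male and 0.14 (SE 0.026, adjusted p = 0.0172) in female cells, and the interaction was -0.031 (adjusted p = 0.674). The male call held only in the fit without male WT replicate 1, with adjusted p from 0.0602 to 0.122 in the other 5, and the female call was lost without female WT replicate 3 or female KO replicate 1 or 2 (adjusted p from 0.0561 to 0.0621).

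**Figure D3:**
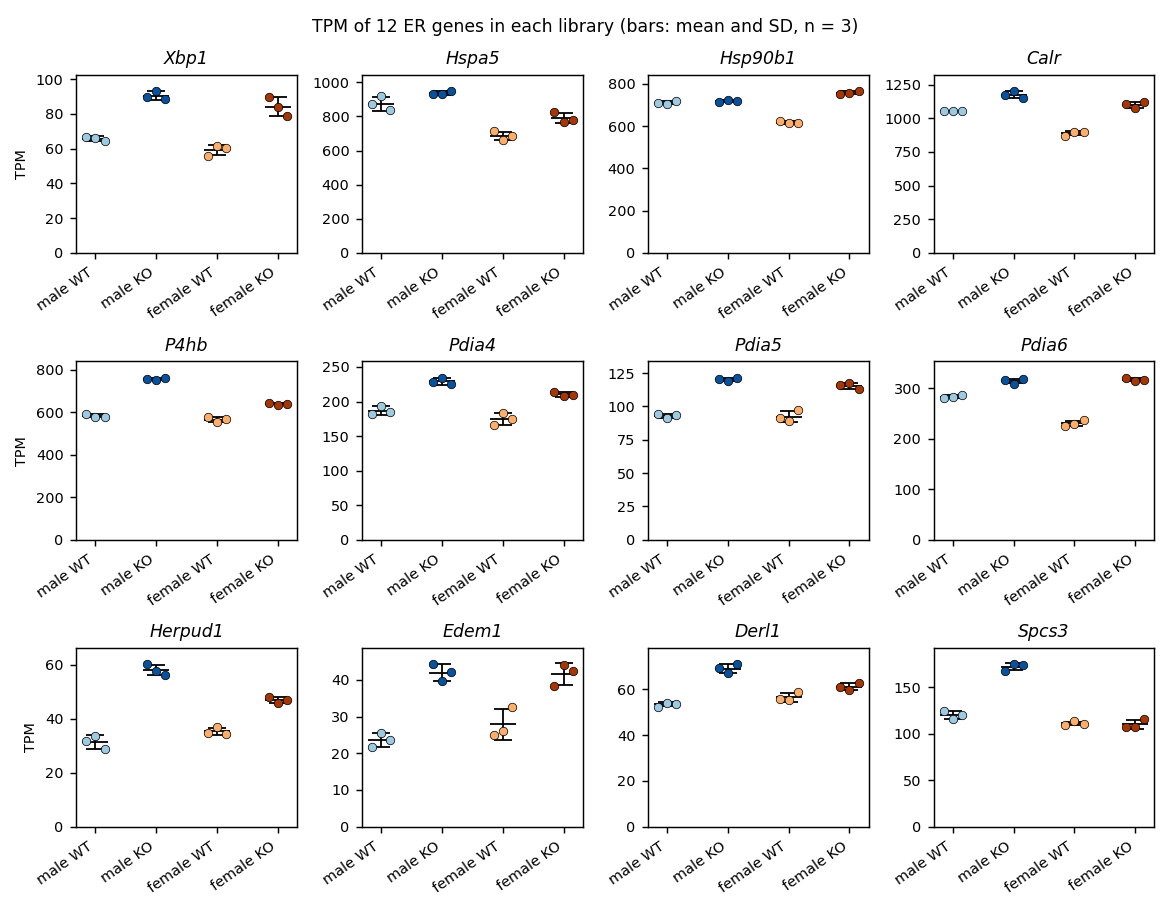
Each panel shows 1 gene, with TPM on a linear y axis from 0 and the 4 groups on the x axis. Points are libraries and bars the mean and SD of 3. KO lies above WT in both sexes for Xbp1, Hspa5, Calr, P4hb, Pdia4, Pdia5, Pdia6, Herpud1, Edem1 and Derl1, while Hsp90b1 differs between KO and WT in female cells and Spcs3 in male cells.

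ER-associated degradation held the 2 largest male changes of the 41 genes, those of Herpud1 and Edem1. Of its 11 members, 5 were higher in male KO and 2 in female KO, with none lower. These are 45.5% and 18.2%, against 10.7% and 5.63% of all genes higher in KO. Herpud1, a membrane protein that organizes the degradation complex and is itself induced by ER stress, was at 31.7, 33.6 and 28.8 TPM in male WT libraries and 60.1, 57.8 and 56.2 in male KO. In female cells it was at 34.5, 36.9 and 34.4 in WT and 47.9, 45.6 and 46.8 in KO. All 6 KO libraries exceeded all 6 WT libraries. The difference of KO over WT was, on the log2 scale, 0.87 (SE 0.070, adjusted p = 0.000237) in male and 0.40 (SE 0.050, adjusted p = 0.00452) in female cells, and the male effect was larger by 0.47 (SE 0.084, adjusted p = 0.00300).

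Edem1, a lectin that takes misfolded glycoproteins out of the folding cycle, changed nearly as much. Its TPM was 21.7, 25.6 and 23.8 in male WT and 44.2, 39.6 and 42.2 in male KO, and 25.0, 26.1 and 32.6 in female WT and 38.4, 44.0 and 42.4 in female KO. Again all KO libraries were above all WT libraries, and replicate 3 of female WT was the highest of the WT libraries. By limma, the log2 fold change was 0.80 (SE 0.079, adjusted p = 0.000617) in male and 0.57 (SE 0.11, adjusted p = 0.0207) in female cells, with an interaction of 0.24 that did not pass (SE 0.14, adjusted p = 0.336). The female call was lost without female WT replicate 1 or 2 or female KO replicate 2 or 3 (adjusted p from 0.0671 to 0.0735).

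Derl1 encodes a derlin, a membrane protein of the retrotranslocation channel. The male libraries held 52.4, 54.2 and 53.8 TPM in WT and 69.2, 67.1 and 70.9 in KO, and the female libraries 55.7, 55.3 and 58.9 in WT and 61.1, 59.8 and 62.8 in KO. KO and WT were separate in both sexes, with the smaller gap in female cells. The log2 fold change was 0.36 (SE 0.046, adjusted p = 0.00196) in male and 0.11 (SE 0.044, adjusted p = 0.163) in female cells, and these differed by 0.25 (SE 0.059, adjusted p = 0.0149).

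Sel1l and Syvn1 form the core ubiquitin ligase of the pathway, with Sel1l as the adaptor and Syvn1 (Hrd1) as the ligase. Sel1l was at 30.8, 30.6 and 33.8 TPM in male WT libraries, 32.0, 42.5 and 37.5 in male KO, 31.6, 28.0 and 28.2 in female WT and 36.1, 32.6 and 37.1 in female KO. The male groups overlapped and the female groups did not. Its log2 fold change of 0.22 (SE 0.11, adjusted p = 0.192) in male and 0.26 (SE 0.075, adjusted p = 0.0735) in female cells did not pass, nor did the interaction of -0.041 (adjusted p = 0.899). Syvn1 was at 31.9 ± 1.14 TPM in male WT, 40.8 ± 1.82 in male KO, 34.0 ± 0.868 in female WT and 37.2 ± 1.53 in female KO, and it passed in male cells with a log2 fold change of 0.35 (SE 0.060, adjusted p = 0.00741). Os9, a lectin that delivers glycoproteins to this ligase, was at 46.4 ± 3.45 TPM in male WT, 58.4 ± 0.803 in male KO, 43.7 ± 2.19 in female WT and 47.9 ± 2.04 in female KO, and it passed in male cells with 0.33 (SE 0.064, adjusted p = 0.0115). Both male calls held in all 6 fits that left out 1 library.

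The other members of the pathway did not pass in either sex. Derl2, a second derlin, was at 38.9 ± 4.05 TPM in male WT, 41.2 ± 3.11 in male KO, 36.0 ± 1.03 in female WT and 36.1 ± 1.43 in female KO. Derl3, the third, was the lowest of the 41 genes at 2.80 ± 1.13 TPM in male WT, 1.76 ± 1.15 in male KO, 2.44 ± 1.40 in female WT and 2.15 ± 0.764 in female KO, and single libraries ran from 0.443 to 3.999 TPM. The 2 relatives of Edem1 act in the same trimming of mannose. Edem2 was at 13.1 ± 0.306 TPM in male WT, 13.4 ± 0.469 in male KO, 12.001 ± 0.758 in female WT and 12.7 ± 0.263 in female KO, with overlapping groups. Edem3 was at 17.9 ± 1.30 TPM in male WT, 19.4 ± 2.48 in male KO, 16.1 ± 0.493 in female WT and 18.3 ± 0.913 in female KO, with KO above WT without overlap in female cells. Erlec1, a lectin related to Os9, was at 30.5 ± 5.84 TPM in male WT, 29.2 ± 3.81 in male KO, 31.3 ± 4.72 in female WT and 30.6 ± 6.36 in female KO, with overlapping groups in both sexes.

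Of the 6 genes of the translocation channel, 2 were higher in male KO and 1 in female KO. These are 33.3% and 16.7%, against 10.7% and 5.63% of all genes, and rest on 1 or 2 genes. Sec61a1, the pore-forming subunit, was at 216, 231 and 219 TPM in male WT libraries and 242, 247 and 245 in male KO, and at 233, 243 and 237 in female WT and 265, 267 and 268 in female KO. KO and WT did not overlap in either sex. In log2 terms the change was 0.14 (SE 0.038, adjusted p = 0.0418) in male and 0.17 (SE 0.028, adjusted p = 0.0135) in female cells, with an interaction of -0.028 (adjusted p = 0.770). The male call held only in the fit without male WT replicate 2, with adjusted p from 0.0833 to 0.125 in the other 5, and the female call was lost without female WT replicate 3 (adjusted p = 0.0534).

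The smaller channel subunits did not pass in either sex. Sec61b was at 323 ± 10.3 TPM in male WT, 353 ± 8.24 in male KO, 293 ± 22.5 in female WT and 304 ± 7.82 in female KO, and Sec61g at 25.7 ± 5.76 TPM in male WT, 29.8 ± 1.96 in male KO, 28.3 ± 4.01 in female WT and 33.7 ± 4.71 in female KO. The Ssr genes encode the translocon-associated protein complex, which helps chains to enter the channel. Ssr1 was at 101 ± 4.23 TPM in male WT, 115 ± 4.68 in male KO, 99.7 ± 1.58 in female WT and 106 ± 0.659 in female KO and passed in male cells with a log2 fold change of 0.20 (SE 0.051, adjusted p = 0.0337), a call that held only in the fit without male KO replicate 1 (adjusted p from 0.0599 to 0.0916 in the other 5). Ssr2 was at 418 ± 4.60 TPM in male WT, 409.5 ± 13.98 in male KO, 381 ± 12.1 in female WT and 359 ± 2.57 in female KO, and Ssr3 at 289.7 ± 8.71 TPM in male WT, 292 ± 6.36 in male KO, 266 ± 6.53 in female WT and 286 ± 5.57 in female KO. Neither passed in either sex, although every female KO library was below every female WT library for Ssr2 and above it for Ssr3.

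Among the 4 signal peptidase genes, Spcs3 alone passed, and in male cells alone. That is 25% of the list, against 10.7% of all genes higher in male KO, and rests on 1 gene. Spcs3 encodes an accessory subunit that the enzyme needs. Male WT held 124, 116 and 119.8 TPM and male KO 168, 174 and 174, while female WT held 109, 113 and 110.5 and female KO 108, 107 and 116. The male KO libraries were above the other 9, and the female groups overlapped. KO differed from WT on the log2 scale by 0.52 (SE 0.041, adjusted p = 0.000235) in male and -0.011 (SE 0.043, adjusted p = 0.899) in female cells. The 2 effects differed by 0.53 (SE 0.058, adjusted p = 9.22e-05), the largest of the 8 interactions in size.

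The other 3 subunits did not pass in either sex. Spcs1 was at 234 ± 9.27 TPM in male WT, 248 ± 9.25 in male KO, 227 ± 3.79 in female WT and 222 ± 16.5 in female KO, and Spcs2 at 159 ± 2.56 TPM in male WT, 155 ± 11.5 in male KO, 151 ± 5.98 in female WT and 151 ± 4.67 in female KO. Sec11c, a catalytic subunit, was at 34.9 ± 2.74 TPM in male WT, 32.3 ± 5.59 in male KO, 32.3 ± 3.61 in female WT and 38.5 ± 0.839 in female KO, with every female KO library above every female WT library.

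Among WT cells, 8 of the 41 genes were higher in male than in female libraries and none was lower by limma with Benjamini-Hochberg adjustment. Over all genes the shares were 6.26% and 6.56%. At an unadjusted p under 0.05, 13 members were higher and 1 lower, against 1574 and 1882 of the 12504 genes. The 8 were Hspa5, Hsp90b1, Dnajb11, Manf, Calr, Pdia3, Pdia6 and Ssr2. The log2 fold change of male over female WT was 0.35 (SE 0.044, adjusted p = 0.00302) for Hspa5, 0.30 (SE 0.032, adjusted p = 0.00148) for Pdia6, 0.25 (SE 0.025, adjusted p = 0.00121) for Calr, 0.24 (SE 0.033, adjusted p = 0.00467) for Dnajb11 and 0.21 (SE 0.025, adjusted p = 0.00238) for Hsp90b1. These 5 passed in all 6 fits that left out 1 library. Manf passed in 2 of the 6 (adjusted p up to 0.0668), Pdia3 in 3 (up to 0.0785) and Ssr2 in none (0.0672 to 0.116). This comparison shares its female WT and male WT libraries with the KO comparisons above. In Calr, Hsp90b1, Pdia6 and Dnajb11, which passed the interaction, female WT was the lowest of the 4 groups. The same held for Hspa5, Manf and Pdia3, which did not pass it. In Ssr2 female KO was the lowest group.

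Among KO cells, 11 genes were higher in male libraries and 1 was lower, against 8.17% and 8.39% of all genes. Spcs3 had the largest value, with a log2 fold change of male over female KO of 0.64 (SE 0.044, adjusted p = 0.000135). It was followed by Sdf2l1 at 0.34 (SE 0.087, adjusted p = 0.0397), Herpud1 at 0.30 (SE 0.049, adjusted p = 0.00675), Os9 at 0.28 (SE 0.050, adjusted p = 0.00988), Hspa5 at 0.25 (SE 0.034, adjusted p = 0.00347), P4hb at 0.24 (SE 0.024, adjusted p = 0.000692) and Sec61b at 0.22 (SE 0.034, adjusted p = 0.00618). Ssr2, Derl1, Pdia4 and Pdia3 were higher by between 0.12 and 0.19. The one gene lower in male KO was Sec61a1, at -0.12 (SE 0.028, adjusted p = 0.0258). Without single libraries, Sdf2l1, Derl1 and Sec61a1 each passed in 1 of 6 fits (adjusted p up to 0.117, 0.133 and 0.0874), Pdia3 in 2 (up to 0.0731) and Pdia4 in none (0.0773 to 0.122).

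Neighbouring ER systems were described with 7 further lists, 91 genes in all, each measured above the filter. In male cells 30 of the 91 were higher and 1 lower in KO, and in female cells 14 and 1 (44 and 4, and 27 and 8, at an unadjusted p under 0.05). The median log2 fold change was 0.13 in male and 0.074 in female cells. Over all 12504 genes, an unadjusted p under 0.05 gave 2077 higher and 2306 lower in male KO, and 1520 and 1879 in female KO. By the adjusted p, 10.7% of all genes tested were higher and 10.9% lower in male KO, and 5.63% and 5.84% in female KO. The interaction passed for 17 of the 91, against 13% of all genes. Of the counts by list below, those of 1 or 2 genes in male cells, and of 1 gene in female cells, are near these shares.

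The collagen-folding proteins, which hydroxylate and chaperone collagen chains in the ER, had the most calls of these lists: 10 of 12 were higher in male KO (median 0.54) and 6 of 12 in female KO (median 0.19). P4ha2, the catalytic partner of P4hb in prolyl hydroxylation, rose from 57.8 ± 5.73 to 113 ± 9.10 TPM in male cells, a log2 fold change of 0.96 (SE 0.088, adjusted p = 0.000438). Plod2, a lysyl hydroxylase, rose there from 26.0 ± 0.798 to 43.9 ± 1.24 TPM, by 0.73 (SE 0.056, adjusted p = 0.000188) on the log2 scale. In female cells the largest changes were those of P4ha3, at 0.91 (SE 0.056, adjusted p = 0.000273), and P3h1, a prolyl 3-hydroxylase, at 0.31 (SE 0.049, adjusted p = 0.0106). The interaction passed for 7 of the 12, with 0.69 for P4ha2 and 0.65 for Plod2.

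The PERK branch and other ER stress regulators were higher in male KO for 5 of 10 genes, and in female KO none was higher and 1 was lower (1 and 4 at an unadjusted p under 0.05). Trib3, a pseudokinase induced by ATF4 and CHOP, was at 21.2, 19.3 and 21.7 TPM in male WT libraries and 57.9, 50.9 and 56.8 in male KO, but at 30.7, 29.1 and 28.0 in female WT and 25.9, 27.4 and 25.9 in female KO. Chac1, which degrades glutathione, was at 29.7 ± 0.733 TPM in male WT libraries and 61.0 ± 2.91 in male KO, and at 35.1 ± 0.287 in female WT and 30.8 ± 1.43 in female KO. The log2 fold change in male cells was 1.37 (SE 0.076, adjusted p = 4.28e-05) for Trib3 and 1.02 (SE 0.057, adjusted p = 4.40e-05) for Chac1, and the interactions were 1.51 and 1.20. Atf4, the transcription factor of this branch, was higher in male KO at 0.82 (SE 0.040, adjusted p = 2.76e-05) and was the 1 gene lower in female KO at -0.13 (SE 0.027, adjusted p = 0.0285). The female call was lost in each of the 6 fits that left out 1 library (adjusted p from 0.0587 to 0.0827). Eif2ak3, the gene of PERK itself, was higher in every KO library than in every WT library of the same sex. By limma it passed in male cells, at 0.33 (SE 0.079, adjusted p = 0.0253). It did not pass in female cells, at 0.22 (SE 0.084, adjusted p = 0.148), nor did its interaction of 0.11 (adjusted p = 0.575). Among WT cells, 3 of the 10 genes were lower and 0 higher in male than in female libraries, against 6.56% and 6.26% of all genes. Atf4 was at 211 ± 6.99 TPM in male and 284 ± 5.83 in female WT. In contrast to Trib3, Chac1 and Atf4, the members Xbp1, Edem1, Pdia4 and Pdia5 were higher in KO in both sexes. Other members differed between the sexes: Spcs3 and Derl1 passed in male cells alone and Hsp90b1 in female cells alone, each with a passing interaction. The female call of Edem1 held in only 2 of the 6 fits that left out 1 library.

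Other oxidoreductases and prolyl isomerases were higher for 7 of 19 genes in male and 4 of 19 in female KO. Fkbp7, an ER prolyl isomerase, had the largest passing change in both, with 0.61 (SE 0.090, adjusted p = 0.00403) in male and 0.38 (SE 0.064, adjusted p = 0.0145) in female cells. Ero1l, the oxidase that reoxidizes P4hb, passed in male cells at 0.45 (SE 0.13, adjusted p = 0.0442), and Prdx4, an ER peroxiredoxin, in female cells at 0.29 (SE 0.044, adjusted p = 0.00893). The interaction passed for 3 genes of this list, among them Ero1l (0.68) and Tmx3 (0.25).

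The oligosaccharyltransferase, which attaches N-glycans, had 4 of 12 genes higher in male KO (Tusc3 0.33, Krtcap2 0.22 on the log2 scale) and 1 in female KO (Ostc 0.21), and the interaction passed for Krtcap2 (0.31) and Rpn2 (0.12). Of 8 genes of glycan trimming and the calnexin cycle, only Mcfd2, a partner of a cargo receptor, passed, in male cells (0.35), while 1 gene had an unadjusted p under 0.05 in female cells. The signal recognition particle and further translocon parts had 2 of 14 genes higher in male and 3 in female KO. Ssr4, the remaining subunit of the translocon-associated complex, was among them at 0.31 and 0.25, as was Tram2 at 0.31 and 0.29, and the interaction passed for Srp14 (-0.18). The cytosolic side of degradation, with retrotranslocation and ubiquitin factors, had 1 of 16 genes higher (Selenos 0.21) and 1 lower (Ube2j2 -0.19) in male KO. In female KO none passed by limma, and 1 was lower at an unadjusted p under 0.05.

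Several of these list calls were near the threshold and were lost when 1 library was left out. Rpn2 (interaction), Tram2 in female cells and Atf4 in female cells passed in none of those fits, although their log2 values stayed between 0.10 and 0.13, between 0.26 and 0.33 and between -0.14 and -0.11. Ero1l, Krtcap2, Selenos, Tram2 and Ube2j2 in male cells passed in 1 to 3 of 6 (adjusted p up to 0.129, 0.125, 0.0977, 0.0918 and 0.0765). In female cells Fkbp7 passed in 3 of 6, Ssr4 in 2 and Ostc in 1 (adjusted p up to 0.0539, 0.108 and 0.104). The interactions of Ero1l, Krtcap2, Srp14 and Tmx3 passed in 2 to 5 of 12 (adjusted p up to 0.0798, 0.0611, 0.0772 and 0.0881).

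**Figure D4:**
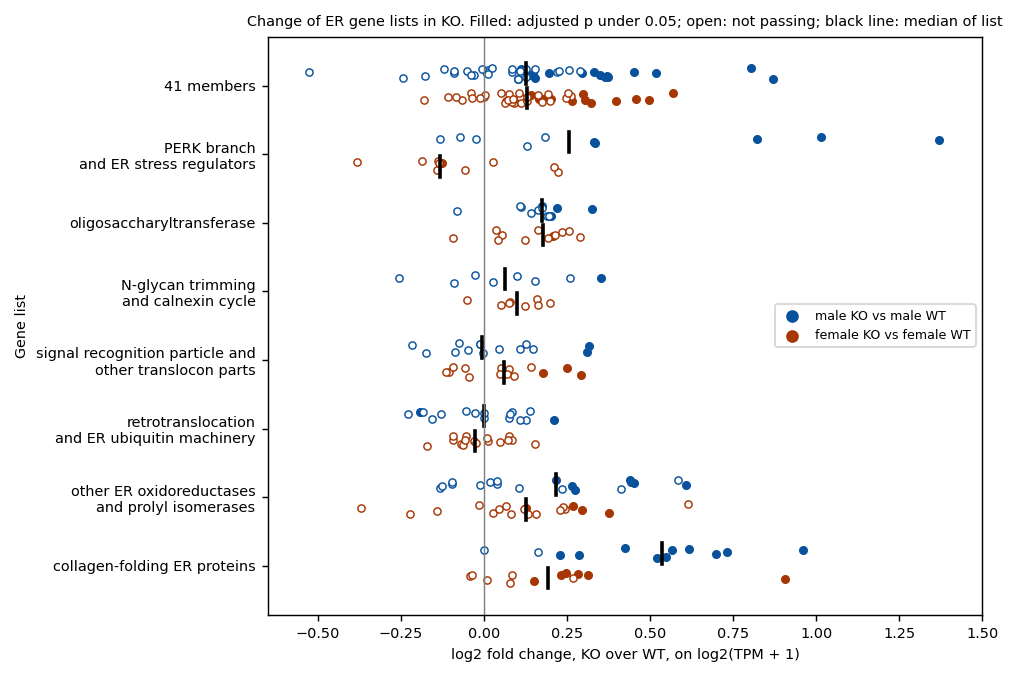
Each point is a gene of the 41 members or of 1 of the 7 other ER lists, placed on the x axis by its log2 fold change of KO over WT on log2(TPM + 1) in male (blue) and female (orange-brown) cells. Filled points have an adjusted p under 0.05 and black lines are list medians. The PERK list and the collagen-folding list have male medians of 0.26 and 0.54 and female medians of -0.13 and 0.19, and the retrotranslocation list lies around 0 in both.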

How the data were processed

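Polyadenylated RNA of 12 MEF cultures, 3 per group, was sequenced by the study, and the authors deposited 1 table of TPM values for 34866 Ensembl genes. Per the methods and the submitters' processing notes, reads were quantified with Salmon (version 1.10.1 in the notes) against GRCm38 and summed to genes, so values are relative to each library's total and to transcript length. A rise of some genes therefore lowers the TPM of the rest. The methods state a target number of reads per sample. Counts were not used here, so the depth reached is unknown and no counting error is given. The authors' own differential test was not used. Gene names came from the GENCODE annotation, with 99.19% of identifiers matched, and 12465 genes were at 0 in every library.

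Values were taken as log2(TPM + 1), which understates the change of low genes. The 12504 genes whose mean over all libraries reached 1 TPM were tested with limma 3.58.1 in R 4.3.3 (lmFit, eBayes with trend), in fits of the 6 libraries compared or of all 12 for the interaction. P-values were two-sided and adjusted by Benjamini-Hochberg over all genes tested, with a threshold of 0.05. The procedure was tested on simulated data. The 41 members and the other lists were chosen with earlier results of these data known. Values in every library are given for members that passed in both sexes or in the interaction, and for Atf6, Ern1, Hspa5 and Sel1l, which met neither condition and were listed with the rule. Group means are given for the rest. Of each other ER list, up to 2 genes with the largest passing change per test are named, and Eif2ak3 is named in addition. The alternatives were another pseudocount, no filter, a filter of 5 TPM, eBayes without the mean-variance trend, quantile normalization, median-of-ratios scaling, 1 fit of all 12 libraries, the replicate number as a block, and leaving out each library in turn. Promoter sequences are those of RefSeq. Protein sequences were not used here.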

Additional observations from a re-analysis of the deposited data

Results flagged for a closer look

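For 8 of the 41 genes the KO effect differed between the sexes by the limma interaction, in 3 libraries per group, against 13% of all genes. The call of Dnajb11 held in only 2 of the 12 fits that left out 1 library. That of Calr was lost with quantile normalization (adjusted p = 0.239) and without the mean-variance trend (adjusted p = 0.116). The male effect exceeded the female effect by 0.53 on the log2 scale for Spcs3, 0.47 for Herpud1, 0.25 for Derl1 and 0.19 for P4hb. The difference, male minus female, was -0.31 for Pdia6, -0.28 for Hsp90b1, -0.16 for Dnajb11 and -0.15 for Calr. In 6 of these genes the fitted KO effect was positive in both sexes, and in Spcs3 the female effect was -0.011. In Dnajb11 all male KO libraries were below the male WT libraries and all female KO libraries above the female WT libraries.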

How the results depend on the processing

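Counts of members and of genes of the other ER lists changed by more than 1.5 times under some alternatives. Without the mean-variance trend, 10 members were higher in male KO (16 reported), 5 were higher in male WT than female WT (8 reported) and 6 in male KO than female KO (11 reported, and 7 with the replicate block). One member, Dnajb11, was lower in male KO with no filter on low values, and 1, Atf6, in the fit of all 12 libraries. The count lower in male KO than female KO (1 reported) was 2 with no filter, quantile normalization or the fit of all 12 libraries, and 0 with median-of-ratios scaling, no trend or the replicate block. In female cells 8 genes of the other ER lists passed with no trend and 8 with the replicate block (15 reported). Calls over all genes fell there too, to 9.13% and 5.36% (5.63% higher and 5.84% lower reported). In male cells 18.5% of all genes were called with no trend (10.7% higher and 10.9% lower reported). The cause of these shifts was not tested.

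Leaving out each library in turn gave 12 to 14 members higher and 0 lower in male KO, 9 to 11 higher and 0 lower in female KO, and 7 to 8 for the interaction. It gave 5 to 7 higher in male WT against female WT, with 5 without male WT replicate 1 or female WT replicate 1. In male KO against female KO it gave 7 to 9 higher, with 7 without female KO replicate 2 or 3, and 0 to 2 lower, with 2 without male KO replicate 2 and 0 without male KO replicate 3 or female KO replicate 1, 2 or 3. For the other ER lists it gave 25 to 28 genes in male, 7 to 11 in female cells (15 reported) and 11 to 14 for the interaction (17 reported). The female count was 9 without female WT replicate 3, 7 without female KO replicate 1 or 2 and 8 without female KO replicate 3, and the interaction count was 11 without male KO replicate 2 or female KO replicate 2. Calls over all genes fell as well. In either direction these fits called 14.5% to 18.5% in male and 6.19% to 6.68% in female cells, and 10.8% to 12.5% for the interaction. The full fits called 10.7% higher and 10.9% lower, 5.63% and 5.84%, and 13%. Between the WT groups the fits called 8.29% to 9.94%, and between the KO groups 10.6% to 14.6%.

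Of the values of single genes under an alternative, 1374 kept their direction and their side of the threshold, 255 lost a call, 4 gained one and 14 changed sign. Without the trend the calls of Calr (adjusted p = 0.0814) and Pdia6 (0.0882) in male cells, P4hb in female cells (0.0610) and the interaction of Calr (0.116) were lost. Sec61a1 (0.0582) and Ssr1 (0.0672) were not called in male cells with no filter, nor Manf (0.0772) and Pdia3 (0.0793) with median-of-ratios scaling. Sel1l passed in female cells with median-of-ratios scaling (adjusted p = 0.0487). Values near 0 changed sign: Hsp90b1 in male cells was -0.0092 with quantile normalization, Spcs3 in female cells 0.017 with median-of-ratios scaling and 0.0060 with quantile normalization, and the Pdia3 interaction 0.0029 with quantile normalization. With single libraries left out, Spcs3 in female cells ran from -0.048 to 0.0098, and the interactions of Ern1 from -0.15 to 0.0098, Sec61a1 from -0.048 to 0.0022, Sel1l from -0.14 to 0.063, Pdia4 from -0.0032 to 0.065 and Xbp1 from -0.088 to 0.0031. None of these passed in either form by limma.

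Libraries with the same replicate number did not deviate together (correlation of deviations from -0.0571 to 0.0779), so the numbers do not pair the samples. With the replicate block, 13 members were higher in male KO, 10 in female KO and 7 in male WT and male KO against the female group, and the interaction passed for 8, while over all genes 670 were called in female cells, against 704 higher and 730 lower without it. The scaling factors by median of ratios ran from 0.966 to 1.02. Counts were not used here, so depth sets no stated limit.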
